A study of Mus musculus with 6 samples.

Results

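Collagens are the fibre and sheet proteins of the extracellular matrix, and each molecule is a triple helix wound from alpha chains that are encoded by separate genes. The collagen genes described here are those whose symbol has the form Col, a type number, a and a chain number, with a nonzero count in at least 1 of the 6 mice. They numbered 44 of the 18782 genes with a count. By textbook class, 11 encode fibrillar chains, 6 encode the type IV chains of basement membranes and 27 encode other chains. The class of each gene follows its type number and not its measured level.

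The study asked how the irradiated thalamus of mice responds when astrocytes are made to express NeuroD1, a transcription factor that drives neuronal differentiation. Wild-type male C57BL/6J mice of 8 to 10 weeks received 50 Gy to the left thalamic region. After 2 weeks they received 2 µL of an AAV9 virus in the thalamus. The RC group (n = 3) carried GFAP104::tdTomato, a red fluorescent protein, and the RN group (n = 3) carried GFAP104::mND1-tdTomato, mouse NeuroD1 with the same protein. Both groups had therefore been irradiated and injected, and by design RN and RC differ in the NeuroD1 cargo. Marker levels of other tissue also differed between the groups, as given below, so RN against RC does not compare the cargo alone. GFAP104 joins an EF1α enhancer to gfaABC1D, a promoter built from the astrocyte gene Gfap, so the virus was aimed at astrocytes. RNA came from unsorted thalamus tissue, its side not stated, taken 6 weeks after irradiation, in which collagen transcripts of all cells are mixed. In such bulk samples, fewer cells of a type and less RNA per cell cannot be told apart.

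Libraries held between 16561663 and 18657015 counted reads. Of the 18782 genes, 14956 passed the filter on low counts and were tested with edgeR's quasi-likelihood test. Neurod1 checked the labels, with counts of 84, 91 and 90 in RC replicates 1 to 3 against 1123, 1711 and 910 in RN (log2 fold change 3.77, adjusted p = 0.00178), although the viral copy may add to these reads. All 12 thalamic neuron markers were expressed and had fitted values below 0, with summed levels of 1224 to 2458 CPM (counts scaled to library size) in RC and 932 to 1765 CPM in RN, the most abundant being Prkcd, Calb2 and Slc17a6. Markers of other tissue were present too, and unevenly. The summed level of 15 choroid plexus markers, the tissue in the ventricles that secretes cerebrospinal fluid, was 4031, 11026 and 667 CPM in RC replicates 1, 2 and 3, against 376 to 428 CPM in the RN mice. Its most abundant genes were Ttr, Enpp2 (also made by oligodendrocytes) and Kl, no marker of the list was at 0 in all mice, and 10 of the 15 had lower levels in every RN mouse than in every RC mouse, against 8.12% of all tested genes. The 12 hypothalamus markers, led by Pmch, Avp and Hcrt, summed to 24.0 to 207 CPM in RC against 235 to 433 CPM in RN, and 6 of the 9 tested lay higher at an unadjusted p under 0.05, against 5.44% of all tested genes. RC replicate 2 for choroid plexus and RC replicate 3 for both lists stood apart from the other RC mice, and the 6 collagens lowest in RN by fold change are given below with and without each of those mice.

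In the brain, type IV collagen forms the sheet on which endothelial cells, pericytes and astrocyte endfeet rest. The chains of types I, III and V form banded fibrils around larger vessels and in the meninges and choroid plexus stroma, and they are laid down by fibroblasts after injury. Type VI builds beaded filaments beside basement membranes, type VIII a short-chain network, and types XV and XVIII carry heparan or chondroitin sulfate chains next to vessels. Some collagens span the membrane of neurons, among them type XXV, a component of amyloid plaques.

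The 3 collagen genes whose results are followed most closely below are shown by the 250 bases before their annotated start, because the type IV pair shares its start region and because the 2 other genes had the smallest p-values on the higher and the lower side. The sequences are those of RefSeq on the build GRCm38.p6, read along the gene's strand, and they differ in build from the GRCm39 of the submitters' processing notes. Capitals mark CCAAT, the CCAAT box, or GGGCGG, the GC box, on either strand, and overlapping matches were each counted. The Col4a1 window is chr8:11312827-11313076 on the minus strand and holds 1 CCAAT box, read as ATTGG. The Col6a1 window is chr10:76726045-76726294 on the minus strand and holds neither motif. The Col8a2 window is chr4:126286544-126286793 on the plus strand and holds 4 GC boxes, 2 of them overlapping in the last run of capitals.
Col4a1: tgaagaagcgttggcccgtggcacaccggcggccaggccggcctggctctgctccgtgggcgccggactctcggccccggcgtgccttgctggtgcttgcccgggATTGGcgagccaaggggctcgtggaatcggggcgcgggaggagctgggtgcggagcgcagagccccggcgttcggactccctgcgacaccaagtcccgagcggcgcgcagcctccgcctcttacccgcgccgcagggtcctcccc
Col6a1: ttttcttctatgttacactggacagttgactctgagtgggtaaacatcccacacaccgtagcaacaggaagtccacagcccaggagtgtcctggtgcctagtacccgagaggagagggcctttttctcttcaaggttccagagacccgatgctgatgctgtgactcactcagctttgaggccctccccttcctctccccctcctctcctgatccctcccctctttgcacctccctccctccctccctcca
Col8a2: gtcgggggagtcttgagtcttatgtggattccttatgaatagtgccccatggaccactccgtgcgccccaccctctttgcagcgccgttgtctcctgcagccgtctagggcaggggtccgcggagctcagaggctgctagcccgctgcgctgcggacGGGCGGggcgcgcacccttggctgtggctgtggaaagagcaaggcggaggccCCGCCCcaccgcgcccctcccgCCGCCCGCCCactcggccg
Of the 44 collagen genes, 35 had such a window, in 38 windows in all. The starts of Col4a1, on the minus strand, and Col4a2, on the plus strand, lay 21 bases apart on chromosome 8, so that the first bases of the 2 transcripts overlap and each window lies in the first part of the other gene. Col4a6 and Col4a5 were arranged head to head as well, with starts 1343 bases apart on chromosome X. The CCAAT box was in 34.2% of the collagen windows and in 33.8% of the 32851 windows of the genome. The GC box was in 57.9% of the collagen windows against 32.7%, and in 75% of the 8 fibrillar, 60% of the 5 type IV and 52% of the 25 other windows. TATAAA, the TATA box, was in 13.2% of the collagen windows against 12.4%. These matches describe the letters of the windows and were not tested.

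Of the 44 genes, 41 passed the filter, namely 10 fibrillar, 6 type IV and 25 other chains. Col24a1, Col10a1 and Col9a1 did not. Col24a1, a fibrillar chain, had counts of 4, 7 and 6 in RC and of 5, 1 and 0 in RN, and this count of 0 allows a level of up to 0.168 CPM. Col10a1, the chain of hypertrophic cartilage, had counts of 6, 6 and 1 in RC and of 2, 11 and 4 in RN. Col9a1, a chain that coats type II fibrils, had counts of 7, 12 and 10 in RC and of 9, 11 and 10 in RN. These 3 genes were not tested.

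No collagen gene was called higher or lower in RN, where a call needs an adjusted p under 0.05 together with a fold of 2 or more. Across all tested genes the same rule called 0.0602% higher (9 genes) and 0.0134% lower (2 genes). At an unadjusted p under 0.05, 5 collagens lay higher and 7 lower in RN, against 5.44% and 6.33% of all tested genes, or 11.8% in either direction. The 5 were Col3a1, Col5a1, Col6a1, Col6a2 and Col7a1, and the 7 were Col4a1, Col4a2, Col4a4, Col8a1, Col8a2, Col9a3 and Col11a2. The smallest adjusted p among the collagens was 0.173, shared by Col6a1 and Col8a2. In 4 collagens every RN mouse lay above every RC mouse and in 5 every RN mouse lay below, against 8.18% and 8.12% of all tested genes. DESeq2's Wald test, the tool named in the study's methods, called no collagen higher and 2 lower, Col8a2 (adjusted p = 0.00127) and Col4a4 (adjusted p = 0.0214), against 0.61% higher and 0.536% lower of the 16228 genes to which it gave an adjusted p. Col6a1 had an adjusted p of 0.00909 in that test and missed the fold limit, with a log2 fold change of 0.98.

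By class, the collagens lay on both sides of 0, and no test was made between classes. The median log2 fold change (RN over RC) was 0.51 for the fibrillar chains, with 8 of 10 above 0, -0.74 for the type IV chains, with all 6 below 0, and 0.28 for the other chains, with 18 of 25 above 0. Over all tested genes the median was 0.0037 and 50.8% lay above 0. The fibrillar median was 0.21 without RN replicate 2, the type IV median -0.44 without RN replicate 1 and the median of the other chains 0.06 without RC replicate 3, so each moved by over 1.5 times with 1 mouse. With types VII, XV and XVIII, which lie at or near basement membranes, counted beside type IV, the median of these 9 genes was -0.43 and that of the remaining 22 other chains 0.25.

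**Figure D1:**
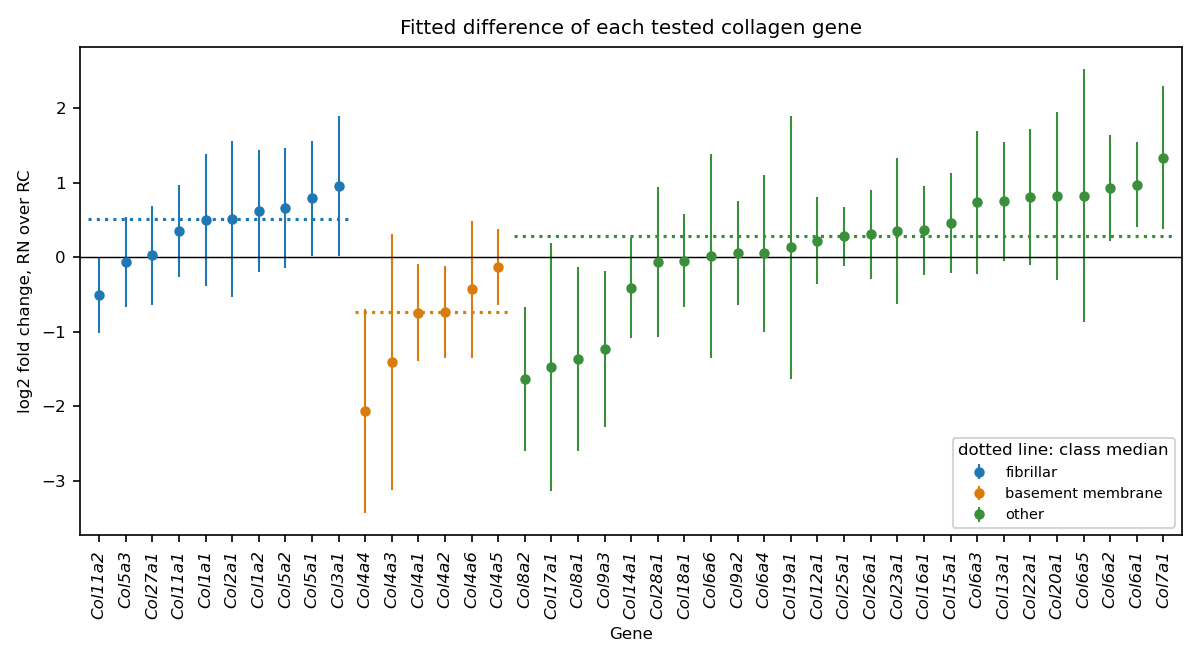
Fitted log2 fold change (RN over RC, vertical axis) of each of the 41 tested collagen genes with its 95% confidence interval, ordered within the 3 classes, and the class medians as dotted lines at 0.51 for fibrillar, -0.74 for type IV and 0.28 for other chains. The 6 type IV points lie below 0, and the lowest points of the other chains are Col8a2, Col17a1, Col8a1 and Col9a3.

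Col4a1 and Col4a2 were the most abundant collagens per length of annotated exons. Col4a1 had a mean level over the 6 mice of 16.8 RPKM (CPM divided by the length of the exons in kilobases) and Col4a2 of 14.0 RPKM. The order below them differed between the groups. In RC it ran Col9a3 at 9.13 ± 6.41, Col25a1 at 6.14 ± 1.15 and Col8a2 at 5.17 ± 3.35 RPKM, and in RN Col25a1 at 7.45 ± 1.47, Col6a1 at 4.88 ± 1.47 and Col18a1 at 4.44 ± 1.16 RPKM (SD, n = 3). In RC these neighbours differed by less than the larger of their SDs, as did Col6a1 and Col18a1 in RN. The type IV chains made up 44.0% ± 8.78 (SD, n = 3) of the summed collagen RPKM in RC and 30.1% ± 8.00 (SD, n = 3) in RN. The fibrillar share was 13.4%, 12.1% and 10.7% in RC replicates 1, 2 and 3, against 18.7%, 22.6% and 16.4% in RN, so the groups did not overlap. The other chains held 43.9% ± 7.93 in RC and 50.6% ± 7.44 in RN (SD, n = 3). Shares of one total move against each other, and the summed level of the fibrillar chains itself overlapped between groups, at 119, 120 and 74.1 CPM in RC against 108, 216 and 119 CPM in RN. The summed level of all collagens was 681 ± 103 CPM in RC against 618 ± 144 CPM in RN (SD, n = 3), a difference within the spread between mice.

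**Figure D2:**
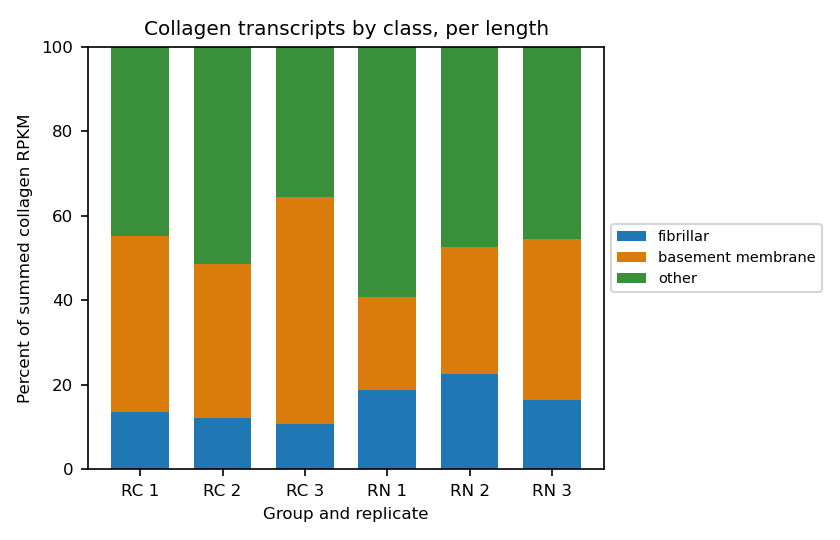
Percent of the summed collagen RPKM (vertical axis) held by the fibrillar, basement membrane and other chains in each mouse of the RC and RN groups. The fibrillar part lies between 10.7% and 13.4% in RC and between 16.4% and 22.6% in RN, and the basement membrane part is smallest in RN replicate 1, at 22.2%.

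Col4a1 and Col4a2 encode the chains of the common type IV molecule, which is present in every vascular basement membrane. Col4a1 (ENSMUSG00000031502) had levels of 150, 158 and 163 CPM in RC replicates 1 to 3 and of 48.9, 111 and 121 CPM in RN. Col4a2 (ENSMUSG00000031503) had levels of 117, 111 and 119 CPM in RC and of 38.1, 88.6 and 81.4 CPM in RN. For both genes the RC mice lay close together, all RN mice lay below them, and RN replicate 1 was far lower than the other RN mice. The log2 fold change was -0.74 ± 0.29 (SE, 95% confidence interval -1.40 to -0.09) for Col4a1, with an adjusted p of 0.352 and an unadjusted p of 0.0308. It was -0.74 ± 0.27 (SE, interval -1.35 to -0.12) for Col4a2, with an adjusted p of 0.323. Without RN replicate 1 the values were -0.43 for Col4a1 and -0.44 for Col4a2. The ratio of Col4a1 to Col4a2 RPKM differed by less than the spread between mice, at 1.20 ± 0.0622 in RC and 1.19 ± 0.114 in RN (SD, n = 3), with an exact two-sided permutation p of 0.9, where 3 against 3 mice allow no p below 0.1.

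Col4a3 and Col4a4 encode chains that together with the Col4a5 chain form the type IV network of the kidney glomerulus, lung and some epithelia. Col4a4 (ENSMUSG00000067158) had levels of 3.48, 7.41 and 1.37 CPM in RC and of 0.951, 1.28 and 0.671 CPM in RN. Every RN mouse lay below every RC mouse, yet RC replicate 3 was close to the RN mice, and RC replicate 2 was the highest. Its log2 fold change was -2.06 ± 0.60 (SE, interval -3.43 to -0.70, adjusted p = 0.208), the lowest among the collagens, -1.32 without RC replicate 2 and -2.48 without RC replicate 3. Col4a3 had levels of 2.13, 5.02 and 0.687 CPM in RC and of 0.535, 1.82 and 0.559 CPM in RN, and a log2 fold change of -1.41 ± 0.75 (SE, adjusted p = 0.536). It followed the same order among the RC mice, its groups overlapped, and its value was -0.53 without RC replicate 2, -1.86 without RC replicate 3 and -2.24 without RN replicate 2.

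Col4a5 and Col4a6 encode the X-linked chains, found in epithelial and smooth muscle basement membranes. Col4a5 had levels of 9.42, 9.32 and 6.58 CPM in RC and of 7.25, 9.62 and 6.26 CPM in RN (log2 fold change -0.13 ± 0.22, SE). Col4a6 had levels of 4.82, 5.91 and 2.40 CPM in RC and of 2.62, 4.76 and 2.35 CPM in RN (log2 fold change -0.43 ± 0.40, SE). The groups overlapped for both genes and both 95% intervals held 0, with adjusted p-values of 0.894 and 0.767. The value for Col4a6 was -0.15 without RC replicate 2 and -0.82 without RN replicate 2.

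The fibrillar collagens are the rod-like collagens of scars, skin and bone. Type I is built from the Col1a1 and Col1a2 chains. Col1a1 had levels of 21.6, 22.2 and 9.62 CPM in RC and of 18.1, 39.1 and 18.2 CPM in RN. Col1a2 had levels of 40.3, 36.8 and 19.3 CPM in RC and of 38.3, 75.9 and 33.9 CPM in RN. In both, RN replicate 2 was the highest and RC replicate 3 the lowest of the 6 mice, and the other 4 mice lay between 18.1 and 22.2 CPM for Col1a1 and between 33.9 and 40.3 CPM for Col1a2. The log2 fold changes were 0.50 ± 0.39 (SE, adjusted p = 0.712) for Col1a1 and 0.62 ± 0.35 (SE, adjusted p = 0.573) for Col1a2. Without RN replicate 2 they were 0.02 and 0.16.

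Col3a1 encodes type III, which forms fibrils with type I in vessel walls and early scars. Its levels were 19.0, 15.1 and 10.6 CPM in RC against 14.8, 48.8 and 23.0 CPM in RN. RN replicate 2 again stood above all others, while RN replicate 1 lay below 2 of the 3 RC mice. The log2 fold change was 0.95 ± 0.41 (SE, interval 0.01 to 1.90, adjusted p = 0.419), and 0.34 without RN replicate 2.

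The type V chains start and limit the width of type I fibrils. Col5a1 had levels of 4.20, 5.49 and 2.18 CPM in RC and of 6.00, 8.66 and 5.81 CPM in RN, and it was the one fibrillar chain with every RN mouse above every RC mouse (log2 fold change 0.79 ± 0.34, SE, interval 0.01 to 1.56, adjusted p = 0.417). Without RC replicate 3 its value was 0.50. Col5a2 had levels of 9.31, 6.81 and 8.30 CPM in RC and of 6.42, 19.0 and 13.2 CPM in RN (log2 fold change 0.66 ± 0.35, SE, adjusted p = 0.532), and its value was 0.26 without RN replicate 2. Here RN replicate 1 was the lowest mouse, so the groups overlapped. Col5a3 had levels of 4.48, 6.51 and 5.78 CPM in RC and of 3.63, 6.09 and 6.32 CPM in RN, and its log2 fold change was -0.06 ± 0.26 (SE).

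Col11a1 and Col11a2 encode chains of type XI, the cartilage relative of type V. Col11a2 had levels of 11.4, 17.7 and 10.4 CPM in RC and of 10.4, 8.71 and 8.66 CPM in RN. It was the one fibrillar chain below 0 at an unadjusted p under 0.05 (log2 fold change -0.51 ± 0.22, SE, adjusted p = 0.423), and without RC replicate 2 its value was -0.24. RN replicate 1, with 175 counts, lay only just below RC replicate 3, with 182. Col11a1 had levels of 2.69, 2.87 and 4.35 CPM in RC and of 4.04, 3.69 and 4.92 CPM in RN (log2 fold change 0.35 ± 0.27, SE), and its value was 0.22 without RC replicate 1 and 0.60 without RC replicate 3. The remaining fibrillar chains were low or level. Col2a1, the main chain of cartilage, had 13 to 31 counts in RC against 21 to 39 in RN (log2 fold change 0.51 ± 0.46, SE), with a value of 0.20 without RN replicate 1 and 1.01 without RC replicate 2. Col27a1 had 43 to 84 counts in RC against 62 to 83 in RN (0.03 ± 0.29, SE, on the log2 scale).

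**Figure D3:**
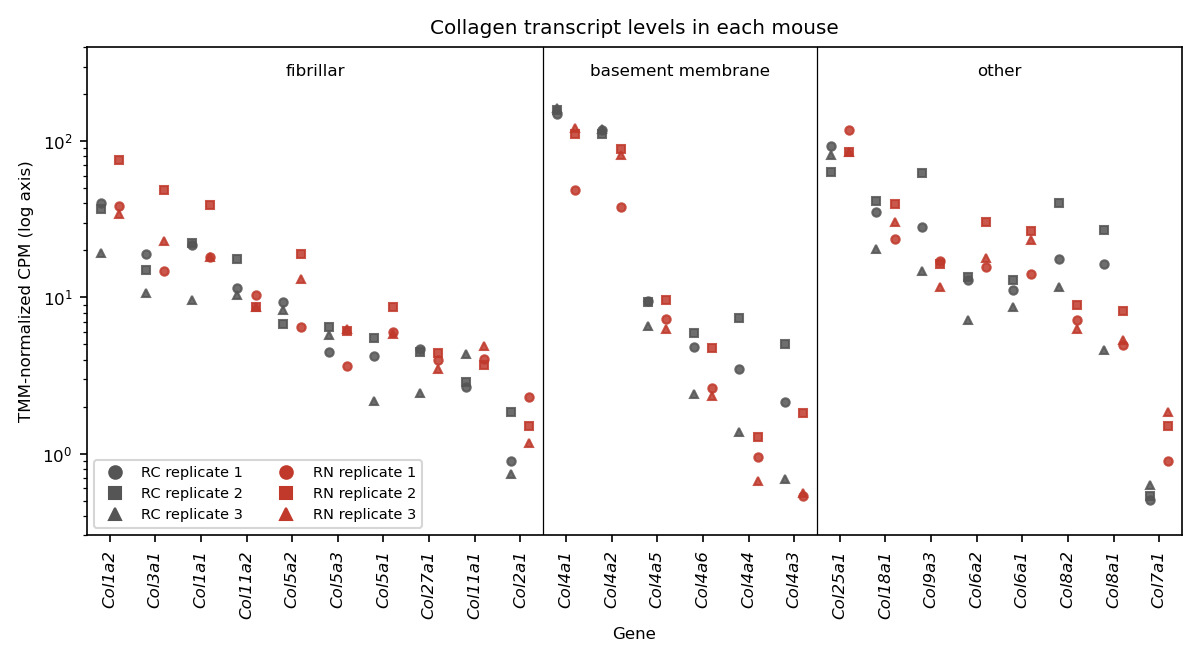
TMM-normalized CPM on a log axis (vertical) of the 24 collagen genes named by the rule, in each RC mouse (grey) and RN mouse (red), with a symbol for each replicate number. RN replicate 2 (red square) is the highest mouse for Col1a1, Col1a2, Col3a1, Col5a1 and Col5a2, and RN replicate 1 (red circle) the lowest for Col4a1 and Col4a2.

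Of the other collagens, the 6 type VI genes all had fitted values above 0, with a median log2 fold change of 0.78. Col6a1 and Col6a2 encode the chains that every type VI molecule needs. Col6a1 (ENSMUSG00000001119) had levels of 11.1, 12.9 and 8.70 CPM in RC and of 14.2, 26.7 and 23.3 CPM in RN. Col6a2 (ENSMUSG00000020241) had levels of 12.9, 13.6 and 7.21 CPM in RC and of 15.7, 30.2 and 18.0 CPM in RN. In both genes every RN mouse lay above every RC mouse, with RN replicate 1 nearest to the RC mice. Col6a1 had a log2 fold change of 0.97 ± 0.25 (SE, interval 0.40 to 1.55, unadjusted p = 0.00443, adjusted p = 0.173), and with each mouse left out in turn it stayed between 0.78 and 1.20, with an unadjusted p under 0.05 in 6 of 6 fits. Col6a2 had a log2 fold change of 0.92 ± 0.31 (SE, interval 0.22 to 1.63, adjusted p = 0.276), and 0.58 without RN replicate 2. Col6a3, the long additional chain of the classic molecule, had 38 to 114 counts in RC against 81 to 203 in RN (log2 fold change 0.74 ± 0.42, SE, adjusted p = 0.569), and its value was 0.39 without RN replicate 2 and 0.40 without RC replicate 3. Col6a4, Col6a5 and Col6a6, chains that can stand in for Col6a3, had mean levels of 0.577 to 1.01 CPM in RC, and their intervals all held 0. The log2 fold changes of Col6a4 (0.05) and Col6a6 (0.02) were close to 0, and both fell below 0 without RC replicate 3 (-0.15 and -0.38). The shared direction of the 6 genes therefore depended on single mice.

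The type VIII chains Col8a1 and Col8a2 form a hexagonal network under endothelia, best known from the back of the cornea. Col8a2 (ENSMUSG00000056174) had levels of 17.7, 40.2 and 11.7 CPM in RC and of 7.13, 8.98 and 6.26 CPM in RN. All RN mice lay below all RC mice, RC replicate 2 was far above the others, and the log2 fold change was -1.63 ± 0.42 (SE, interval -2.60 to -0.67, unadjusted p = 0.00441, adjusted p = 0.173), or -0.98 without RC replicate 2 and -1.95 without RC replicate 3. Col8a1 had levels of 16.4, 26.8 and 4.64 CPM in RC and of 4.99, 8.18 and 5.37 CPM in RN. RC replicate 3 was here the lowest of all mice, and the log2 fold change of -1.36 ± 0.53 (SE, adjusted p = 0.366) was -0.76 without RC replicate 2 and -1.80 without RC replicate 3. Col9a3, a chain of the type IX collagen that coats type II fibrils, had levels of 28.3, 62.6 and 14.7 CPM in RC and of 17.0, 16.4 and 11.7 CPM in RN (log2 fold change -1.23 ± 0.46, SE, adjusted p = 0.334). Its value was -0.52 without RC replicate 2 and -1.60 without RC replicate 3. The second tested type IX chain, Col9a2, had levels of 6.35 to 11.6 CPM in RC and of 5.92 to 11.4 CPM in RN and did not share the RC order (log2 fold change 0.05 ± 0.30, SE).

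Col7a1 encodes type VII, the anchoring fibril of skin. Its counts were 9, 9 and 11 in RC and 15, 28 and 33 in RN, and every RN mouse lay above every RC mouse. The log2 fold change of 1.33 ± 0.42 (SE, interval 0.38 to 2.29, adjusted p = 0.237) rests on few reads, with a highest level of 1.84 CPM.

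Col25a1, a transmembrane collagen of neurons, had levels of 93.0, 63.6 and 81.8 CPM in RC and of 118, 85.5 and 85.4 CPM in RN (log2 fold change 0.28 ± 0.17, SE, adjusted p = 0.618), and its value was 0.10 without RN replicate 1 and 0.41 without RC replicate 1. Col18a1, whose end fragment is endostatin, had levels of 35.0, 41.3 and 20.4 CPM in RC and of 23.5, 39.7 and 30.3 CPM in RN (log2 fold change -0.05 ± 0.27, SE, adjusted p = 0.977). Both genes overlapped between groups. Col17a1, a chain of the hemidesmosome named after its values were seen, had 25, 50 and 6 counts in RC against 8, 7 and 15 in RN (log2 fold change -1.47 ± 0.72, SE, adjusted p = 0.495), and its value was -0.63 without RC replicate 2 and -1.95 without RC replicate 3. The 11 other tested chains, among them Col12a1, Col13a1, Col15a1, Col16a1 and Col23a1, had intervals that held 0.

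The highest and the lowest mouse recurred across collagens. RC replicate 3 was the lowest of the 6 mice in 21 of the 41 tested collagens, against 19.8% of all tested genes, and RN replicate 2 was the highest in 14, against 13.9%. RC replicate 2 was the highest in 11, against 21.7%. Among the 10 fibrillar chains RN replicate 2 was highest in 5 and RC replicate 3 lowest in 6. Among the 6 type IV chains RN replicates 1 and 3 were each lowest in 3, against 16.6% and 15.4% of all tested genes.

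Markers of the cell types that hold collagens moved with some of these values. Of 12 endothelium markers, 11 had a fitted value below 0 and 7 lay lower at an unadjusted p under 0.05, 5 of them with every RN mouse below every RC mouse, against 6.33% and 8.12% of all tested genes, and their median log2 fold change was -0.39. Their summed level was 688 to 779 CPM in RC against 495 to 639 CPM in RN, lowest in RN replicate 1, which was also lowest for Col4a1 and Col4a2. The most abundant were Slc2a1, Flt1 and Ly6c1, of which Slc2a1 had a log2 fold change of -0.37 and Flt1 of -0.02. The 12 pericyte and smooth muscle markers had a median of -0.01, with summed levels of 428 to 467 CPM in RC against 397 to 525 CPM in RN. This sum too was lowest in RN replicate 1, with RN replicate 3 close to it at 398 CPM. The list was led by Rgs5, Vtn and Anpep. Of these Anpep stood apart, with every RN mouse above every RC mouse, at 23.8, 30.5 and 22.0 CPM in RC against 46.1, 68.7 and 56.1 CPM in RN (log2 fold change 1.16 ± 0.18, SE, adjusted p = 0.0661). The part of vessel cell number in the type IV values was not tested.

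The choroid plexus markers moved with many collagens, both lower and higher in RN, but not with Col4a1 and Col4a2. All 15 had fitted values below 0, 13 at an unadjusted p under 0.05, against 6.33% of all tested genes, with a median log2 fold change of -3.56. The 6 collagens with a log2 fold change under -1, namely Col4a3, Col4a4, Col8a1, Col8a2, Col9a3 and Col17a1, all had RC replicate 3 lowest and RC replicate 2 highest among the RC mice, the order of the choroid plexus score (the mean centred log2 CPM of the markers). These 6 were picked by fold change in the same data, and a high RC replicate 2 lowers a fold change, so the choice itself favours this order. Its share among all tested genes of such a fold change was not counted. Across all 41 tested collagens 19 had this order, against 19% of all tested genes, and Col5a1, Col6a1 and Col6a2, higher in RN, were among them. Within groups, 28 of the 41 had a correlation with the score above 0.5, against 24.2% of tested genes outside the marker list. For Col5a1, Col6a1 and Col6a2 it was 0.92, 0.59 and 0.73. Col4a1 and Col4a2 did not share the order, and their correlations were 0.04 and 0.03. With the score as a covariate, which was higher in every RC mouse than in every RN mouse and so overlaps with the group term, the log2 fold change was -0.09 for Col4a4, -0.28 for Col8a2, 0.76 for Col8a1, 1.05 for Col4a3, 0.40 for Col9a3 and 1.15 for Col17a1, while it was -0.72 for Col4a1 and -0.73 for Col4a2 (adjusted p = 0.648 and 0.625). For the higher chains it was 1.44 for Col6a1, 1.69 for Col6a2 and 1.84 for Col5a1 (adjusted p = 0.265, 0.245 and 0.197). The part of choroid plexus tissue in these values was not tested beyond this fit.

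The fibroblast and meninges markers, 16 genes led by Igf2, Pdgfra (which oligodendrocyte precursors also express) and Dcn, had none with an unadjusted p under 0.05 and a median log2 fold change of 0.39, with 12 of 16 above 0. Their summed levels were 451, 497 and 157 CPM in RC against 372, 462 and 177 CPM in RN, low in replicate 3 of both groups. RC replicate 3, the lowest mouse for 6 of the 10 fibrillar chains, was therefore also the lowest for these markers, while RN replicate 2, the highest for 5 of them, lay between RC replicates 1 and 2 in this sum. Much of the sum is Igf2, at 198, 298 and 51.2 CPM in RC against 124, 156 and 40.7 CPM in RN. The 15 markers without Igf2 summed to 253, 199 and 106 CPM in RC against 249, 305 and 136 CPM in RN, so that RN replicate 2 was then the highest mouse, as it was for Dcn, at 75.4 CPM against 13.8 to 48.3 CPM in the other mice. Of 5 Schwann cell markers 2 passed the filter, Ncmap and Prx, and the list summed to between 2.1 and 4.0 CPM over the 6 mice. The part of fibroblast content in the fibrillar and type VI values was not tested.

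**Figure D4:**
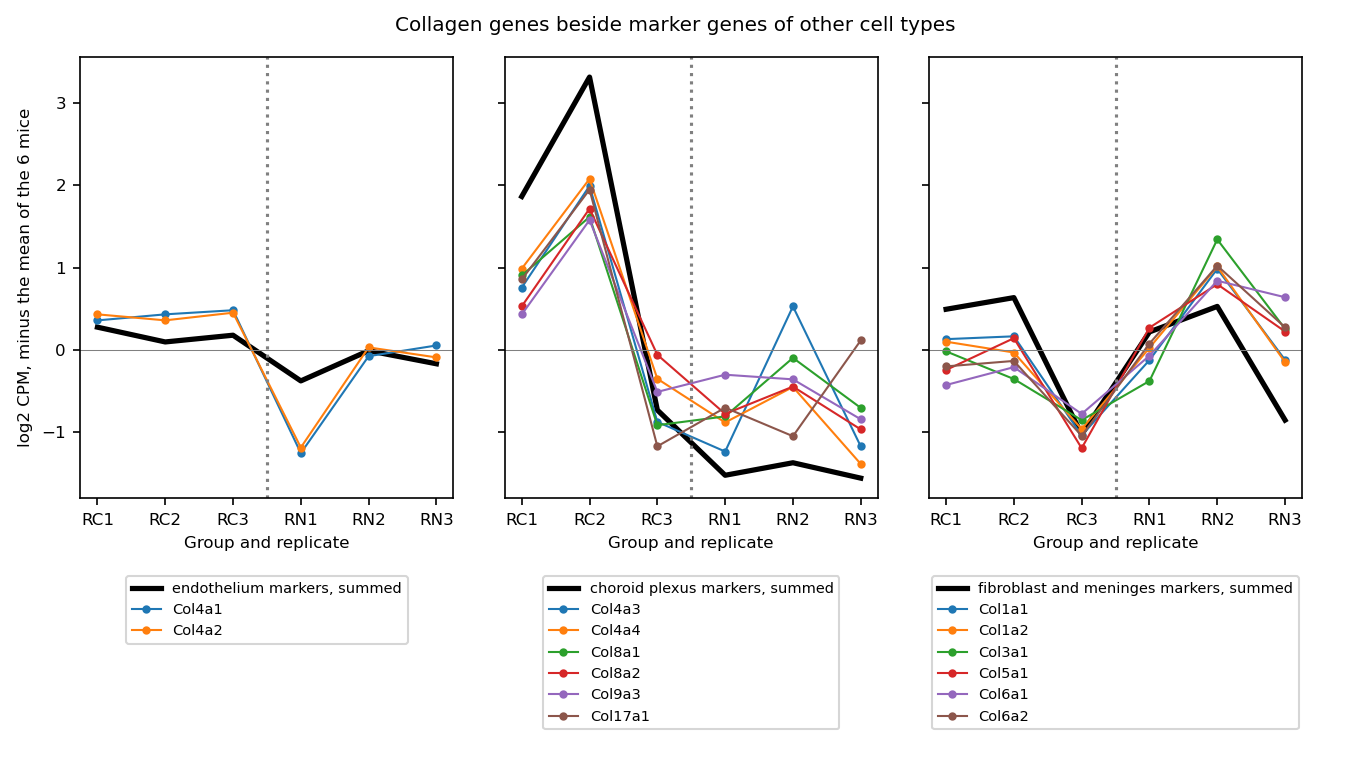
Log2 CPM minus its mean over the 6 mice (vertical axis), in each mouse, for summed marker genes (thick black) and collagen genes chosen for these panels after their values were seen. The lines link the values of one gene and imply no order of the mice. Col4a1 and Col4a2 are lowest with the endothelium markers in RN replicate 1, and the 6 collagens of the middle panel peak with the choroid plexus markers in RC replicate 2.

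The genes that make, join, bind and degrade collagen were described by list, and none of these genes was called. Of 22 genes of chain modification and folding, which hydroxylate and glycosylate the chains and escort them through the secretory path, none lay higher and 1 lower at an unadjusted p under 0.05, against 5.44% and 6.33% of all tested genes, with a median log2 fold change of 0.04. That gene was P4ha3, a prolyl hydroxylase subunit, with 318, 304 and 304 counts in RC against 121, 217 and 222 in RN (log2 fold change -0.77 ± 0.20, SE, adjusted p = 0.185). Next by p were Creb3l1, a transcription factor of collagen secretion (0.39 ± 0.19), and Plod3, a lysyl hydroxylase (0.24 ± 0.12, SE, both on the log2 scale).

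Of 14 genes of procollagen cleavage and crosslinking, 1 lay higher and 1 lower at that p (5.44% and 6.33% of all tested genes), with a median of 0.11. Lox, the lysyl oxidase that starts crosslinking, had 36, 46 and 18 counts in RC against 35, 137 and 80 in RN (log2 fold change 1.26 ± 0.50, SE, adjusted p = 0.377), with RN replicate 2 highest as for 5 of the fibrillar chains. Pcolce2, an enhancer of procollagen cleavage, had 278, 426 and 215 counts in RC against 168, 262 and 158 in RN (log2 fold change -0.70 ± 0.29, SE, adjusted p = 0.394). Bmp1, the protease that it helps, had a log2 fold change of 0.32 ± 0.17 (SE). Of 9 tested collagen receptors none had a p under 0.05, and the median was -0.06. Itga11, an integrin chain for fibrillar collagens, had a log2 fold change of 1.01 ± 0.50 (SE), Itga1, the chain that binds type IV, of -0.41 ± 0.21 (SE), and Mrc2, which takes up cleaved collagen, of 0.35 ± 0.39 (SE). The platelet receptor Gp6 had 0 to 3 counts and was not tested.

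Other proteins of the basement membrane did not share a direction. Of 16 genes, 2 of those reported lay lower at an unadjusted p under 0.05 (6.33% of all tested genes), 5 had fitted values above 0, and the median was -0.03. Nid2, a linker of laminin and type IV sheets, had 274, 389 and 199 counts in RC against 65, 161 and 146 in RN (log2 fold change -1.27 ± 0.35, SE, adjusted p = 0.193). Hspg2, which encodes perlecan, had 1116, 1305 and 1035 counts in RC against 402, 977 and 694 in RN (log2 fold change -0.80 ± 0.25, SE, adjusted p = 0.244). In both, all RN mice lay below all RC mice and RN replicate 1 was lowest, as for Col4a1 and Col4a2.

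Collagen-degrading proteases had mostly higher fitted values in RN. Of 6 genes, 4 lay higher and none lower at an unadjusted p under 0.05, against 5.44% and 6.33% of all tested genes, and the median log2 fold change was 0.69. Mmp8, the neutrophil collagenase, had 7, 6 and 15 counts in RC against 32, 70 and 82 in RN, without overlap (log2 fold change 2.65 ± 0.49, SE, adjusted p = 0.0967). Mmp14, the membrane-bound collagenase, had 794, 626 and 667 counts in RC against 736, 1239 and 1091 in RN (log2 fold change 0.51 ± 0.16, SE, adjusted p = 0.235). Mmp2, a gelatinase that cleaves type IV and unfolded chains, had 364, 410 and 268 counts in RC against 384, 925 and 670 in RN (log2 fold change 0.87 ± 0.28, SE, adjusted p = 0.254). RN replicate 1 was in all 3 the RN mouse nearest to RC. The fourth gene was Mmp13, which also did not overlap, with 7, 12 and 12 counts in RC against 13, 38 and 51 in RN (log2 fold change 1.65 ± 0.54, SE, adjusted p = 0.258), and it was named after its values were seen.

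Ratios between chains that share a molecule or a fibril were compared as well. The 7 RPKM ratios, chosen after the data were seen, were compared by exact two-sided permutation tests, with p adjusted over the 7 ratios between 0.875 and 0.9. Col1a1 to Col1a2 ranged from 0.897 to 1.14 over the 6 mice and Col4a1 to Col4a2 from 1.11 to 1.32, although each of these genes varied more than 3-fold in CPM. Col6a1 to Col6a2 ranged from 1.63 to 2.46. The ratio of Col4a3 to Col4a4, from 0.532 to 1.51, and that of Col8a1 to Col8a2, from 0.226 to 0.531, had wider ranges, and the ratio of Col3a1 to Col1a1 was 0.594 ± 0.143 in RC and 0.742 ± 0.170 in RN (SD, n = 3).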

How the data were processed

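Bulk RNA-seq of thalamus tissue was analysed in 6 mice, 3 RC and 3 RN, grouped by their labels. The authors deposited whole-number counts for each gene, with 1 column per mouse and no normalization, and the normal control mice of the study were not used here. Libraries were made with the NEBNext Ultra RNA kit. The submitters' processing notes name fastp 0.18.0, FastQC, HISAT2 2.2.4, RSEM 1.2.19 and the build GRCm39, without roles or order. RSEM estimates fractional counts, and whether these were rounded before they were deposited, the annotation and the use of strand are not given in the sources used here.

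Counts were normalized by TMM and fitted with edgeR 4.0.16 in R 4.3.3 (filterByExpr with a minimum count of 10, quasi-likelihood with the legacy option, group alone). P-values were adjusted by Benjamini-Hochberg over the 14956 tested genes, and calls needed an adjusted p under 0.05 together with a fold of 2 or more. Intervals are 95% intervals of the fit. P-values set a difference against the spread between these mice. The biological coefficient of variation common to all tested genes was 17.4%, and some collagens varied more, such as Col8a2 at 23.2 ± 15.0 CPM in RC (SD, n = 3). Total counts of 16561663 to 18657015 put the limit of a count of 0 (3 counts) at 0.160 to 0.179 CPM, which covers counting error alone, as the reads carry no molecular identifiers. RPKM divides CPM by the merged length of all exons of a gene in GENCODE M21. This length can exceed that of a single transcript and may differ from the authors' annotation, which bears on RPKM ranks, shares and ratios. The fit was run on simulated counts with large known changes in genes above a minimum mean count. That run does not show how well smaller differences or genes of low count are found.

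The collagen classes, gene lists, members and tests were chosen with earlier results of these data known. Named were every tested fibrillar and type IV gene, other collagens with an unadjusted p under 0.05 or among the 3 of highest mean CPM, untested members, up to 3 genes of each pathway list by p and up to 3 of each marker list by CPM. Col6a3, Col6a4, Col6a5, Col6a6, Col9a2 and the chains listed without values of their own lie outside this rule. Others outside it are marked where they appear. The result of 1 gene of the basement membrane protein list is not reported here. Alternatives were DESeq2 1.42.0, its size factors in edgeR, other filters, edgeR's robust option, types VII, XV and XVIII counted as basement membrane, calls without the fold limit, a replicate block, a choroid plexus score as covariate, each mouse left out and, added after seeing the data, edgeR without its legacy option.

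RC and RN share replicate numbers, with no statement in the study of what a number stands for. Deviations from the group means correlated across genes at 0.173, 0.120 and 0.209 for replicates 1, 2 and 3. Between different numbers they correlated at -0.285 to 0.156. The matched replicates all passed a limit of 0.1, but so did RC replicate 1 with RN replicate 2, at 0.156. Whether the numbers pair the mice is therefore not settled. The main fit used group alone, and pairing entered only the replicate block.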

Additional observations from a re-analysis of the deposited data

How the results depend on the processing

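Of the 14 alternatives, DESeq2's Wald test was the one that called collagens, with 0 higher and 2 lower. Without the fold limit edgeR also called 0 in both directions. With the replicate block, 0 were called, 7 lay higher and 7 lower at an unadjusted p under 0.05 (6.63% and 6.97% of all tested genes, and 5 and 7 collagens without the block), the medians were 0.52 (fibrillar), -0.83 (type IV) and 0.28 (other), and the block changed no call. The robust option gave 4 lower at that p (6.23% of all tested genes). With the choroid plexus score as covariate, 12 collagens lay higher and 0 lower (5.12% and 4.35% of all tested genes), the medians were 1.06, 0.095 and 0.81, and direction reversed for Col5a3 (0.041), Col11a1 (-0.079), Col4a3 (1.05), Col4a5 (0.28), Col4a6 (0.61), Col8a1 (0.76), Col9a3 (0.40) and Col18a1 (0.77), and, beyond the genes named by the rule, for Col14a1 (0.31 from -0.42) and Col17a1 (1.15 from -1.47). The cause was not tested.

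With each mouse left out in turn, calls ranged from 0 to 0 in both directions. Of all tested genes these fits called 0.0198% to 0.172% higher and 0% to 0.119% lower. Counts at an unadjusted p under 0.05 ranged from 2 to 6 higher and from 3 to 7 lower. The higher count was 2 without RN replicate 2 (4.32% of all tested genes), 3 without RC replicate 3 (4%) and 6 without RN replicate 1 (5.12%), and the lower count was 3 without RC replicate 2 (5.55%), 4 without RC replicate 1 (6.81%), 4 without RN replicate 3 (4.91%) and 7 without RC replicate 3 (6.52%) or RN replicate 2 (6.14%). Medians ranged from 0.21 to 0.67 (fibrillar), -0.92 to -0.44 (type IV) and 0.06 to 0.39 (other). Among the genes named by the rule, values reversed for Col5a3 (-0.20 to 0.15), Col27a1 (-0.21 to 0.19), Col4a5 (-0.33 to 0.0013) and Col18a1 (-0.29 to 0.17). Beyond them, values also changed sign for Col6a4, Col6a6, Col9a2, Col12a1, Col19a1, Col23a1 and Col28a1. Without RN replicate 2, for example, Col23a1 moved from 0.35 to -0.24 and Col12a1 from 0.22 to -0.03. The other values for named collagens kept their direction and stayed uncalled at an adjusted p under 0.05 with a fold of 2 or more. They number 136 with a mouse left out (8 reversed) and 180 under other alternatives (8 reversed, and the 2 DESeq2 calls). Unadjusted p did not always keep its side of 0.05. With a mouse left out it was under 0.05 in 2 of 6 fits for Col3a1 and in 6 of 6 for Col6a1.

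With 3 mice a group, no named collagen reached an adjusted p under 0.05 in the edgeR fits. Low chains rest on few reads, such as the 9 to 33 counts of Col7a1. Choroid plexus markers were higher in every RC mouse by their score, so their part and that of the virus cannot be fully told apart here.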
